A study of Mus musculus with 47 samples.

Results

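The genes encoding collagen chains were followed in cranial neural crest cells of the mouse embryo. Members were all protein-coding genes whose whole symbol is Col, digits, a, digits. The rule found 43 genes of 38215 in the table, and 41 of them passed the filter on low counts and were tested. The other two were Col6a4, with at most 7 counts in a library, and Col4a4, with at most 12. The members fell into 11 fibrillar genes, 9 FACIT genes (chains that attach to the surface of fibrils), 6 basement membrane genes, 6 beaded filament genes, 3 short-chain network genes, 4 transmembrane genes, 2 multiplexins, the anchoring fibril gene Col7a1 and Col28a1.

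Collagens are triple helices of 3 chains that are modified and folded in the endoplasmic reticulum, secreted, trimmed and then assembled outside the cell. Types I, III and V form the fibrils of skin, bone and loose mesenchyme, and types II, IX and XI those of cartilage. Type IV builds the sheet of the basement membrane, and type VI forms fine filaments around cells. Type VIII makes open lattices and is known from vessel walls and the cornea. Cranial neural crest cells leave the neural folds and give rise to most of the cartilage, bone and connective tissue of the face.

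The 47 libraries form 16 groups. The E8.5 group held 3 wild-type libraries of crest progenitors. Cells after migration came from 4 places, in wild type at E10.5 and at E11.5. These are FNP, the frontonasal process, Mx and Md, the maxillary and mandibular prominences of the first pharyngeal arch, and PA2, the second arch. Ezh2cKO, a conditional knockout of the Polycomb methyltransferase gene Ezh2, was sampled in each place at E10.5, and HoxA2OE, an overexpression of the homeobox gene Hoxa2, in Md at E10.5. Hoxa2TempMut, a temporal knockout of Hoxa2, and its Control were sampled in PA2 at E11.5. Groups held 3 libraries, except wild-type Mx at E10.5 with 2. The genotype of Control is given no further, and neither the Cre driver nor the promoter of the Hoxa2 transgene is named in the sources used here. Replicates are numbered in the labels without saying that they are separate embryos or litters, so the p-values reflect only how far these samples differ, which may be technical.

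The depth of the libraries lay between 18.8 and 49.8 M counts, where M stands for 1e6, and the median was 30.6 M. Levels are counts per 1e6 of the TMM-scaled total (CPM), and tests are edgeR's quasi-likelihood test with Benjamini-Hochberg adjustment over 20560 genes. Ezh2 stood at 113 to 157 CPM in the 12 Ezh2cKO libraries and at 350 to 404 CPM in all 11 wild types of that stage. Hoxa2 averaged 0.27 CPM in wild-type Md, 110 ± 15.9 CPM in HoxA2OE and, in PA2 at E11.5, 269 CPM in Control, 192 CPM in wild type and 185 CPM in Hoxa2TempMut. The libraries labelled Hoxa2TempMut thus lay below Control but overlapped wild type (175.6 to 194.6 against 183 to 199 CPM), so Hoxa2 RNA does not set them apart from wild type. Which part of the gene the knockout removes is not given in the sources used here. HoxA2OE replicate 1 stood apart, with a TMM factor of 0.514 and 45.9% of counts from mitochondrial genes, so HoxA2OE results below are also given without it. Replicates 2 and 3 also lay outside wild-type Md, with TMM factors of 0.775 and 0.765 against 1.002 to 1.079. Their mitochondrial share was 28.45 and 28.53% against 19.93 to 23.96%, and their depth 45.6 and 49.8 M against 18.8 to 22.6 M. Leaving out replicate 1 does not remove these differences, and their part in the HoxA2OE results was not tested. E8.5 replicate 1 differed from the other two E8.5 libraries by a chi-square per degree of freedom of 118 and 128, against 6.67 between those, and without it 26 members were higher and 6 lower at E10.5. FNP replicate 1 at E10.5 (42.3 and 44.4, against 6.19 between the others) and FNP replicate 3 at E11.5 (71.3 and 65.3, against 12.1) also stood apart. Without them 29 and 32 members were called between these stages, against 30 with all libraries. Markers of crest and mesenchyme, such as Prrx1 and Twist1, summed to 194 CPM at E8.5, 777 to 1448 CPM in the wild-type groups of E10.5 and 1210 to 2208 CPM in those of E11.5.

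The upstream sequences of 6 members are shown because the results turn on how these genes moved, alone or with the gene next to them. Each window holds 250 bases before and 50 bases after the RefSeq transcription start in GRCm38.p6, written 5′ to 3′ on the strand of the gene. Capitals mark every match on either strand to GGGCGG (the core of the GC box), to TATAAA (the TATA box), to CCAAT (the box of that name) and to AACAAT (a core that Sox proteins bind). Col8a1 (chr16:57754688-57754987, minus strand) and Col8a2 (chr4:126286544-126286843, plus strand) encode both chains of type VIII.
Col8a1: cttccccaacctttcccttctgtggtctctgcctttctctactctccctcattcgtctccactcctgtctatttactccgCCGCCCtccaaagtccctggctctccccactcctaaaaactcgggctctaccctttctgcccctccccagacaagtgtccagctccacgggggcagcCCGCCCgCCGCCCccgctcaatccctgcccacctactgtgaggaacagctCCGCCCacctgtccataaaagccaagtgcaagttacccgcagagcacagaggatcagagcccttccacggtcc
Col8a2: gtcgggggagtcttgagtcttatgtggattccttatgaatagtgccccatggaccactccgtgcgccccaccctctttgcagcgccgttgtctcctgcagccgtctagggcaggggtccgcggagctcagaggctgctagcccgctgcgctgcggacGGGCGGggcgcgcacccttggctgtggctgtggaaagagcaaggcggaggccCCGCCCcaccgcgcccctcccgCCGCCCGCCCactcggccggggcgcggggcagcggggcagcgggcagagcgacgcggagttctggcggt
Col4a1 (chr8:11312777-11313076, minus strand) and Col4a2 (chr8:11312555-11312854, plus strand), the chains of the ubiquitous type IV collagen, lie head to head and their annotated genes overlap by 22 bases. Both windows reach across that overlap, on opposite strands, and share only part of their bases.
Col4a1: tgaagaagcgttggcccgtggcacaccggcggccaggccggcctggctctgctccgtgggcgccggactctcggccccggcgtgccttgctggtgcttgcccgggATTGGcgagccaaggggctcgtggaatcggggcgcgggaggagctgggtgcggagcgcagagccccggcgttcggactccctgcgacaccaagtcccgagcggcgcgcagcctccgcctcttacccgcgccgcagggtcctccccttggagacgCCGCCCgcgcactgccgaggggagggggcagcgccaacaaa
Col4a2: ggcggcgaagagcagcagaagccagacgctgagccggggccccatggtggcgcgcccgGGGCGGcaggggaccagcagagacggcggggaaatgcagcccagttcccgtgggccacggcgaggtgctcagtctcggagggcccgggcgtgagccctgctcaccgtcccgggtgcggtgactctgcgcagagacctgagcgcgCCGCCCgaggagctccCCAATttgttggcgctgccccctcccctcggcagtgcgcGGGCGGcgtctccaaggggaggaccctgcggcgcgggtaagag
Col4a6 (chrX:141474027-141474326, minus strand) and Col4a5 (chrX:141475169-141475468, plus strand) also lie head to head, with 1308 bases between the annotated genes.
Col4a6: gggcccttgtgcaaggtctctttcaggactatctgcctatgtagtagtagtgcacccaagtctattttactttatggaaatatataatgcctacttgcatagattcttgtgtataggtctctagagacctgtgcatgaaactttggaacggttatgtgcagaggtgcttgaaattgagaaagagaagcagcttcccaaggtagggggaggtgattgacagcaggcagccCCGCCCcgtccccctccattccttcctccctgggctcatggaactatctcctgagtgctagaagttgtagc
Col4a5: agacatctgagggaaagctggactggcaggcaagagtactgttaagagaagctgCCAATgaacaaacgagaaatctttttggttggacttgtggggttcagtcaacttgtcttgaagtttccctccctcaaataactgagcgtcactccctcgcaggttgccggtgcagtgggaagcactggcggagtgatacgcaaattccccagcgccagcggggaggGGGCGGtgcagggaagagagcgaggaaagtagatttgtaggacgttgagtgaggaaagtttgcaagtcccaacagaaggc
A window was found for 35 of the 43 members. GGGCGG was in 62.9% of the 35 windows and in 35.7% of all 32851 windows of the same length. CCAAT was in 34.3% and 37.4%, TATAAA in 14.3% and 13.6%, and AACAAT in 2.86% and 10.7%. These are matches of letters only. Type VIII genes each held 4 GGGCGG matches.

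Between E8.5 progenitors and the E10.5 places, most collagen genes rose, led by chains of types VI, XXV and VIII, while both multiplexins and the X-linked type IV pair fell. Of 41 members, 27 (65.9%) were higher and 6 (14.6%) lower at E10.5, the mean of the 4 places set against E8.5. Over all genes, 32.1% were higher and 36.3% lower. The median log2 fold change was 1.5 over the members and -0.03 over all genes tested. Summed collagen RNA averaged 740 CPM at E8.5 and 1863 to 2498 CPM in the 4 places at E10.5. In bulk libraries, fewer cells of a type and less RNA per cell cannot be told apart.

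Among fibrillar genes, 9 of 11 rose and Col11a2 fell. Col3a1, the single chain of type III, stood at 58.3, 41.6 and 56.9 CPM in the E8.5 libraries and at 447, 499.7 and 668 CPM (lowest, median and highest) over the 11 wild types at E10.5. Every E10.5 library lay above every E8.5 library, and the log2 fold change was 3.33 ± 0.13, adjusted p = 2.28e-24. Col1a1, which supplies 2 of the 3 chains of type I, went from 9.99, 5.996 and 6.93 CPM to a range of 42.6 to 64.9 CPM, also without overlap (2.88 ± 0.16, adjusted p = 1.18e-19). Its partner Col1a2 went from 98.7, 59.6 and 60.3 CPM to between 190 and 756 CPM (2.20 ± 0.13, adjusted p = 1.75e-18), the widest spread between places of the fibrillar genes named here.

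Col2a1, the cartilage fibril chain, was already the most abundant collagen per kilobase of exon at E8.5. It stood at 145, 137 and 143 CPM there and at 264, 318 and 333 CPM (lowest, median and highest) at E10.5, with no overlap (1.14 ± 0.10, adjusted p = 5.89e-13). Col11a1, a chain of the thin fibrils that type XI forms with type II, stood at 21.6, 19.7 and 20.9 CPM and then at 49.3 to 98.9 CPM (1.79 ± 0.10, adjusted p = 3.57e-19). Col9a1, the type IX chain carried on those fibrils, stood at 8.51, 9.53 and 9.47 CPM and then at 18.5 to 139 CPM (2.61 ± 0.17, adjusted p = 2.8e-17). Markers of cartilage summed to 283 CPM at E8.5 and 127 to 210 CPM at E10.5, and 5 of 7 were lower at E10.5, so these 3 chains and the cartilage marker list did not move alike.

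Beaded filament genes gave the largest rise. Col6a3, the long chain of type VI, stood at 0.267, 0.410 and 0.566 CPM in the progenitors and 19.4, 28.8 and 44.6 CPM (lowest, median and highest) at E10.5 (6.24 ± 0.19, adjusted p = 6.7e-28). Of the 5 beaded filament genes tested, 4 rose. Col6a5 was listed at 0 counts in every E8.5 and FNP library, so no fold is given for it. Col25a1, a transmembrane collagen known from motor neurons and muscle, went from 0.339, 0.582 and 0.817 CPM to between 9.81 and 34.4 CPM (4.95 ± 0.21, adjusted p = 3.14e-23), and the other 3 transmembrane genes also rose.

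Both chains of type VIII were near their floor at E8.5, and at E10.5 they had parted. Col8a2 stood at 0.0969, 0.345 and 0.440 CPM and then at 2.26 to 14.4 CPM (4.63 ± 0.27, adjusted p = 2e-18). Col8a1 stood at 0.194, 0.129 and 0.272 CPM and at 0.0266 to 0.467 CPM in the 11 E10.5 libraries, between 1 and 11 counts in each, and the groups overlapped (-0.04 ± 0.48, adjusted p = 0.948). Col10a1, the collagen of hypertrophic cartilage, was low throughout, at 1.41, 0.453 and 0.775 CPM and then 2.33 to 4.51 CPM (1.75 ± 0.23, adjusted p = 1.12e-08). Of the exons of Col10a1, 18 bases lie opposite Nt5dc1, and reads there cannot be told apart in unstranded libraries.

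Of the basement membrane genes, none of 5 rose and 2 fell. Col4a6 stood at 15.3, 12.8 and 12.7 CPM in the progenitors against 0.477 to 2.19 CPM at E10.5 (-3.90 ± 0.15, adjusted p = 9.19e-25). Col4a5, its head-to-head neighbour, fell much less (-0.84 ± 0.11, adjusted p = 1e-08), and the ratio of Col4a6 to Col4a5 per kilobase went from 0.739 ± 0.0512 (SD, n = 3) to group means between 0.0667 and 0.17. No change was called for the ubiquitous pair on average, at 94.6, 99.0 and 121 CPM for Col4a1 and 72.3, 82.3 and 89.8 CPM for Col4a2 at E8.5, and log2 fold changes of -0.12 ± 0.08, adjusted p = 0.169, and -0.14 ± 0.11, adjusted p = 0.271. Those averages cover places on both sides of the E8.5 level, since Col4a1 stood at 182, 160.3 and 149 CPM in FNP and 72.2, 73.2 and 66.5 CPM in Md. Col18a1, the endostatin precursor of basement membranes, stood at 67.0, 89.7 and 85.7 CPM and then at 11 to 34.2 CPM (-1.93 ± 0.14, adjusted p = 4.73e-16).

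Markers of other cell types moved with the same comparison. Epithelial markers summed to 185 CPM at E8.5 and 3.72 to 12.04 CPM in the E10.5 groups, and all 9 tested were lower, with Krt14 at 0 in every wild-type E10.5 library. Endothelial markers summed to 172 CPM at E8.5 and 3.78 to 8.29 CPM at E10.5, and all 10 were lower. Notochord and floor plate markers summed to 20.1 CPM and then to at most 0.14 CPM, with Shh at 0 in every wild-type E10.5 library. Erythroid markers summed to 821 CPM and then to 37.3 to 370 CPM. Their part in the levels of Col4a5, Col4a6, Col15a1 and Col18a1, which basement membranes of epithelium and vessels contain, was not tested.

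**Figure D1:**
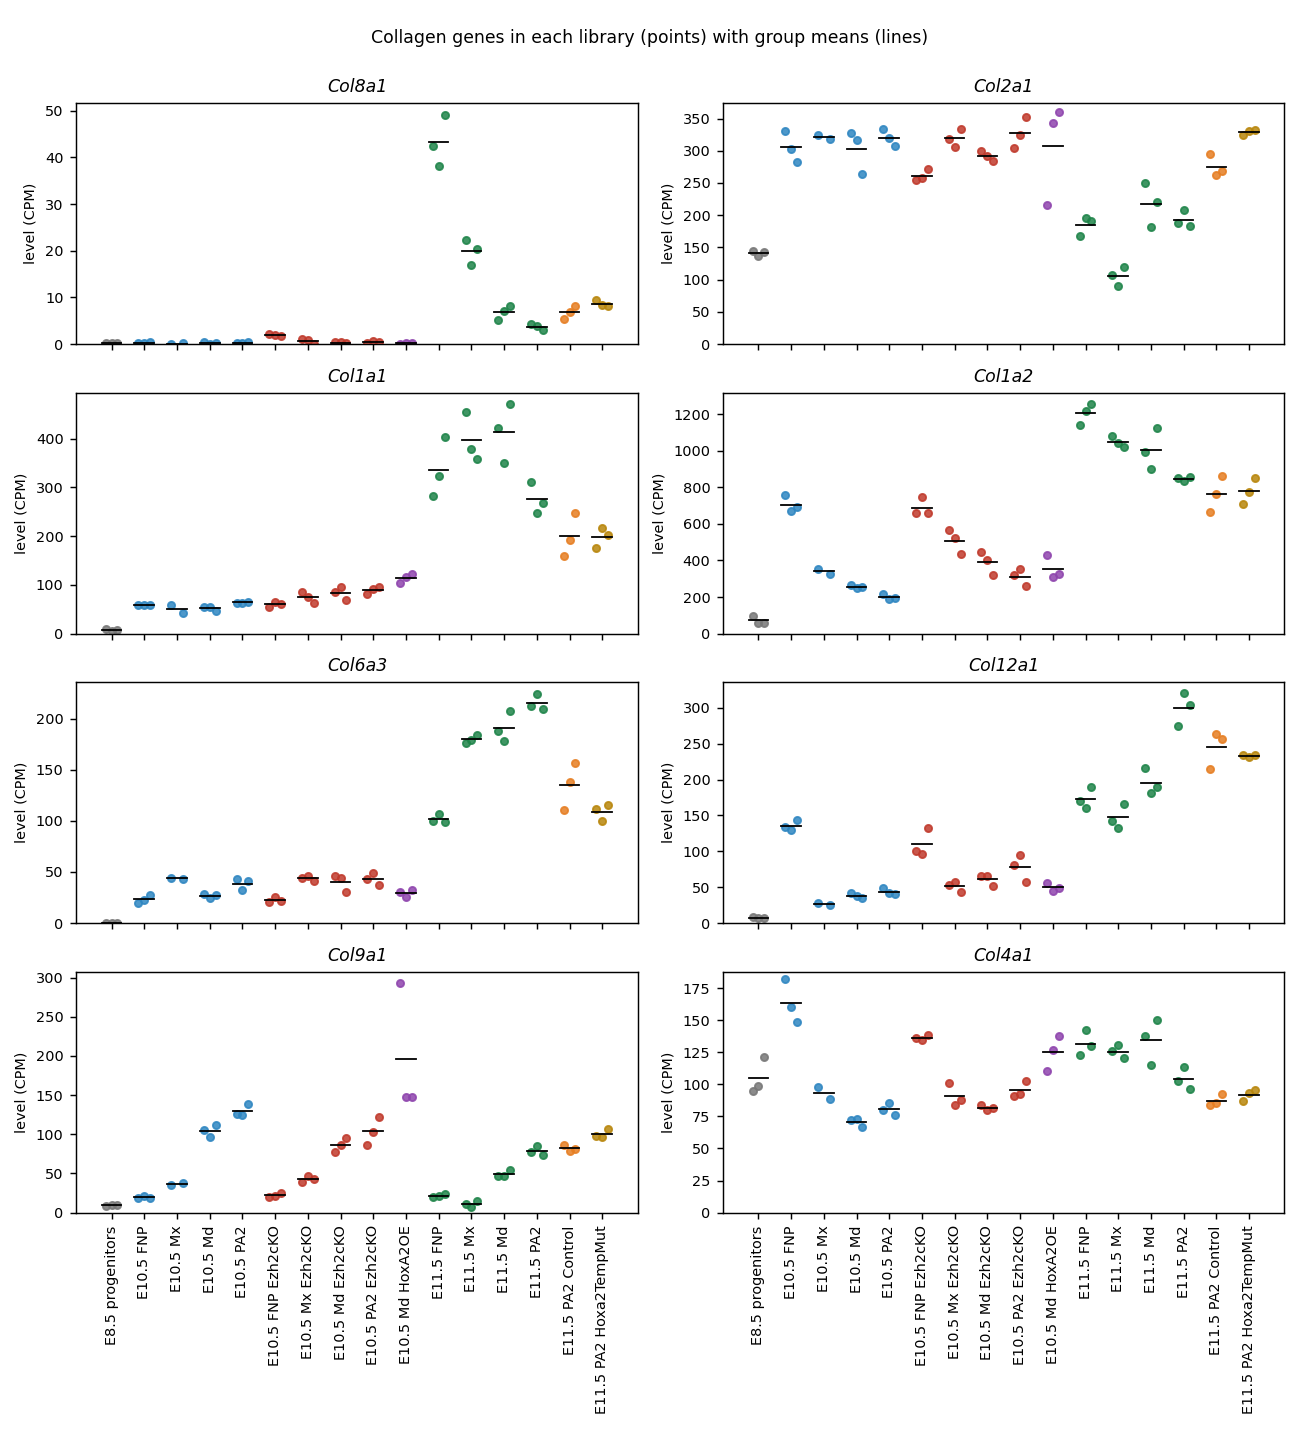
Level of Col8a1, Col2a1, Col1a1, Col1a2, Col6a3, Col12a1, Col9a1 and Col4a1 in CPM on linear axes that start at 0, over the 16 groups, with points for single libraries and lines for group means. Col8a1 lies below 0.5 CPM in all E8.5 and wild-type E10.5 libraries and above 3 CPM in all E11.5 libraries.

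The make-up of the collagen RNA, per kilobase of exon, moved from type IV and II towards types III and I. Col2a1 made up 23.0% of collagen RNA per kilobase at E8.5, 17.2 to 22.2% in the wild-type groups of E10.5 and 3.96 to 7.45% in those of E11.5. Basement membrane genes together went from 30.8% to between 8.29 and 14.3% and then to between 6.21 and 7.59%. Multiplexins went from 11.8% at E8.5 to 0.698 to 1.77% in the wild-type groups of E10.5 and at most 0.679% in those of E11.5. Col3a1 ranked first at E10.5 with 24.2% and at E11.5 with 26.5% of the total over libraries. At E11.5 Col1a2 followed with 18.2% and Col1a1 with 11.7%, and Col2a1 had moved from second to the fourth rank. Fibrillar genes held 45.7% at E8.5 and 66.2 to 76.7% in the wild-type groups afterwards.

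**Figure D2:**
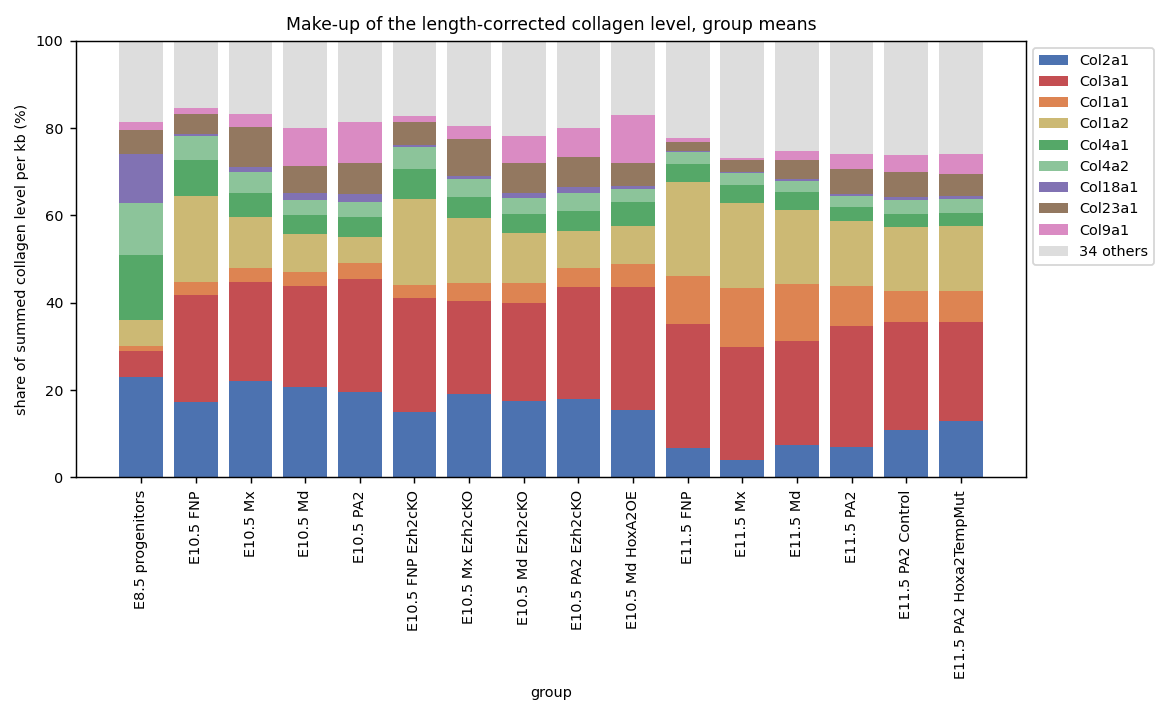
Stacked bars of the share of summed collagen level per kilobase of exon, in percent, for 9 single genes and the 34 others in each of the 16 groups, as means over libraries. Col2a1 takes 23.0% at E8.5 and 3.96 to 7.45% in the wild-type groups of E11.5.

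From E10.5 to E11.5 types I, VI, XII and VIII rose in wild type, and Col2a1, Col9a1 and Col18a1 fell. Of 41 members, 24 (58.5%) were higher and 6 (14.6%) lower, against 33.7% and 30.1% of all genes. The median log2 fold change was 0.51 over the members and 0.03 over all genes. Summed collagen RNA averaged 3895 to 4152 CPM in the 4 places at E11.5, and each exceeded its own E10.5 group.

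Col8a1 (chr16:57624258-57754737) had the largest change among the called members. The 11 wild-type E10.5 libraries held 0.0266, 0.189 and 0.467 CPM (lowest, median and highest). At E11.5 it stood at 42.5, 38.1 and 49.2 CPM in FNP, 22.2, 16.9 and 20.4 CPM in Mx, 5.06, 7.07 and 8.20 CPM in Md and 4.32, 3.82 and 3.08 CPM in PA2. No E11.5 library overlapped any earlier one, and FNP and Mx were highest. The log2 fold change over the 4 places was 5.94 ± 0.22, adjusted p = 1.56e-24. Col8a2, the other type VIII chain, rose only by 0.43 ± 0.11, adjusted p = 0.00107, as a mean over the 4 places. In Mx it stood at 2.26 and 4.34 CPM at E10.5 and at 3.14, 1.95 and 2.48 CPM at E11.5, with overlap. In FNP, Md and PA2 every E11.5 library lay above every E10.5 library of the same place. The mean ratio of Col8a1 to Col8a2 per kilobase was at most 0.031 in the wild-type E10.5 groups. At E11.5 this ratio reached 2.61 ± 0.237 in FNP and 7.01 ± 0.716 in Mx, but 0.197 ± 0.0462 in PA2 (SD, n = 3).

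All 3 main chains of type VI rose. Col6a1 stood at 2.65, 6.35 and 8.93 CPM (lowest, median and highest) at E10.5 and 30.5, 46.7 and 62.7 CPM at E11.5 (3.04 ± 0.09, adjusted p = 2.2e-28). Col6a2, which lies next to Col6a1 on chromosome 10, stood at 7.58, 11.8 and 16.6 CPM and then at 50.8, 60.0 and 85.9 CPM (2.47 ± 0.09, adjusted p = 1.53e-24). Col6a3 stood at 98.9, 182 and 224 CPM at E11.5 (2.37 ± 0.07, adjusted p = 6.36e-27). None of these 3 genes overlapped between the stages. The sum of all 6 beaded filament genes held 1.22 to 3.2% of collagen RNA per kilobase in the E10.5 groups and 4.9 to 8.78% in the E11.5 groups.

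Type I and the fibril-bound type XII rose as well. Col1a1 stood at 42.6, 58.3 and 64.9 CPM (lowest, median and highest) and then at 247, 354 and 471 CPM (2.65 ± 0.09, adjusted p = 2.04e-26). Col1a2 stood at 189.9, 267 and 756 CPM and then at 835, 1031 and 1257 CPM (1.61 ± 0.07, adjusted p = 1.1e-21). The lowest E11.5 library of each lay above the highest E10.5 library. Col12a1, the long FACIT chain of dense connective tissue, had a log2 fold change of 1.99 ± 0.07, adjusted p = 8e-25, and Col3a1 one of 0.97 ± 0.07, adjusted p = 6.83e-16. Bone markers summed to 21.8 to 46.5 CPM in the E10.5 groups and 48.5 to 303 CPM in the E11.5 groups, and 3 of 5 were higher. Their part in the rise of type I was not tested.

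Cartilage chains did not move as a group. Col2a1 stood at 89.8, 186 and 249.8 CPM (lowest, median and highest) at E11.5, below every E10.5 library of wild type (-0.88 ± 0.06, adjusted p = 3.79e-16). Col9a1 fell (-0.86 ± 0.09, adjusted p = 5.52e-11) with overlap between stages, since the places differ. Col11a1 rose slightly (0.43 ± 0.06, adjusted p = 1.95e-08), and Col10a1 stood at 2.08 to 4.27 CPM, not distinguishable from E10.5 (-0.07 ± 0.13, adjusted p = 0.67). The regulator Sox9 fell too (-0.76 on the log2 scale), and 4 of 7 cartilage markers were lower. Col4a1 rose by 0.35 ± 0.05, adjusted p = 8.05e-08, while Col4a2 had 0.13 ± 0.07, adjusted p = 0.118. Endothelial markers summed to 12.1 to 20.4 CPM in the E11.5 groups, against 3.78 to 8.29 CPM before, and 6 of 10 were higher. Their part in the type IV levels was not tested.

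**Figure D3:**
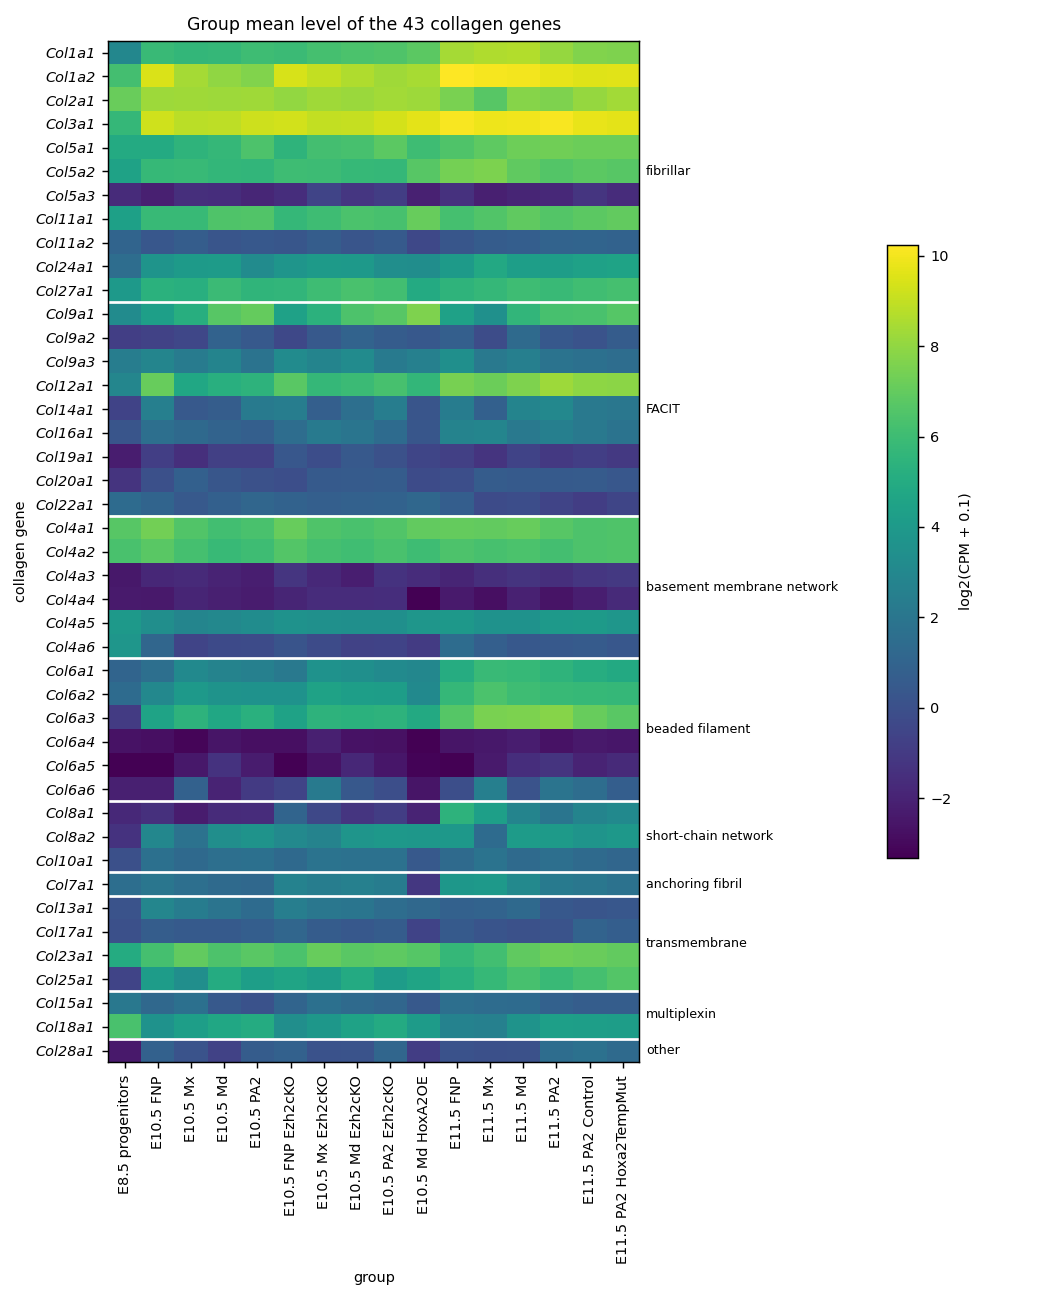
Mean level of each of the 43 members in each of the 16 groups, as colour for log2 of CPM plus 0.1, with members ordered by class. Col3a1 and Col1a2 are the brightest rows after E8.5, and the Col8a1 row brightens in the E11.5 columns.

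The size of that change differed between places for 24 of 41 members (58.5%) by a joint F test of 3 contrasts, against 15.6% of all genes. Within the places, 20 members rose and 6 fell in FNP (backgrounds 22.7% and 20%), 20 and 6 in Mx (20% and 18.3%), 24 and 5 in Md (21.3% and 17%) and 24 and 5 in PA2 (21.3% and 18.1%). Calls were higher in all 4 places for 15 members. These were Col1a1, Col1a2, Col3a1, Col5a1, Col5a2, Col12a1, Col16a1, Col4a5, Col6a1, Col6a2, Col6a3, Col6a6, Col7a1, Col8a1 and Col25a1. Col2a1, Col13a1 and Col18a1 were lower in all 4. How many of all genes were called in all 4 places was not counted, so these counts have no background beside them.

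Col12a1 had the strongest place dependence (adjusted p = 8.66e-13). In FNP it stood at 134, 130.4 and 144 CPM at E10.5 and 169.8, 159.9 and 189.8 CPM at E11.5, a log2 fold change of 0.35 ± 0.13, adjusted p = 0.0311. That call was lost without FNP replicate 1 at E10.5 (0.34) or replicate 3 at E11.5 (0.25), among others. In Mx it went from 27.8 and 25.5 CPM to 143, 133 and 166 CPM (2.47 ± 0.17, adjusted p = 2.24e-15), and in PA2 from 48.99, 41.6 and 40.3 CPM to 275, 320.2 and 304 CPM (2.78 ± 0.14, adjusted p = 1.12e-18). The E10.5 libraries of FNP overlapped the E11.5 libraries of Mx.

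Col23a1, a transmembrane collagen, and Col4a1 changed in opposite directions between places. Col23a1 fell from 86.2, 70.8 and 69.4 CPM to 47.7, 56.4 and 51.8 CPM in FNP (-0.54 ± 0.10, adjusted p = 3.3e-05) and from 123 and 128 CPM to 71.7, 60.8 and 74.7 CPM in Mx (-0.86 ± 0.11, adjusted p = 3.21e-08). It rose from 95.6, 81.3 and 84.1 CPM to 137, 106 and 126 CPM in Md (0.50 ± 0.10, adjusted p = 8.75e-05) and by 0.49 on the log2 scale in PA2. Col4a1 rose from 72.2, 73.2 and 66.5 CPM to 138, 115 and 150.0 CPM in Md (0.93 ± 0.10, adjusted p = 4.27e-10). In FNP it went the other way, to 123, 142 and 129.6 CPM (-0.31 ± 0.10, adjusted p = 0.00782), a call that was lost without FNP replicate 1 at E10.5 (-0.23). Over all places Col4a1 lay at 66.5 to 182 CPM at E10.5 and within 96.5 to 150 CPM at E11.5.

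Col14a1, a FACIT collagen of dense connective tissue, rose most in Md, from 1.32, 1.77 and 1.49 CPM to 7.70, 6.23 and 6.60 CPM (2.16 ± 0.18, adjusted p = 2.15e-12). In FNP it stood at 6.25, 5.81 and 4.79 CPM and 5.14, 4.23 and 5.99 CPM (-0.13 ± 0.16, adjusted p = 0.544), with overlap. Col9a1 fell in Mx from 34.7 and 38.0 CPM to 11.1, 7.33 and 14.4 CPM (-1.74 ± 0.20, adjusted p = 2.52e-09) but had a log2 fold change of 0.09 ± 0.18, adjusted p = 0.703 in FNP. Col8a1 rose by 7.31 in FNP and 7.56 in Mx on the log2 scale, but by 4.89 in Md and 4.02 in PA2, and the difference between places had an adjusted p of 0.00374.

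**Figure D4:**
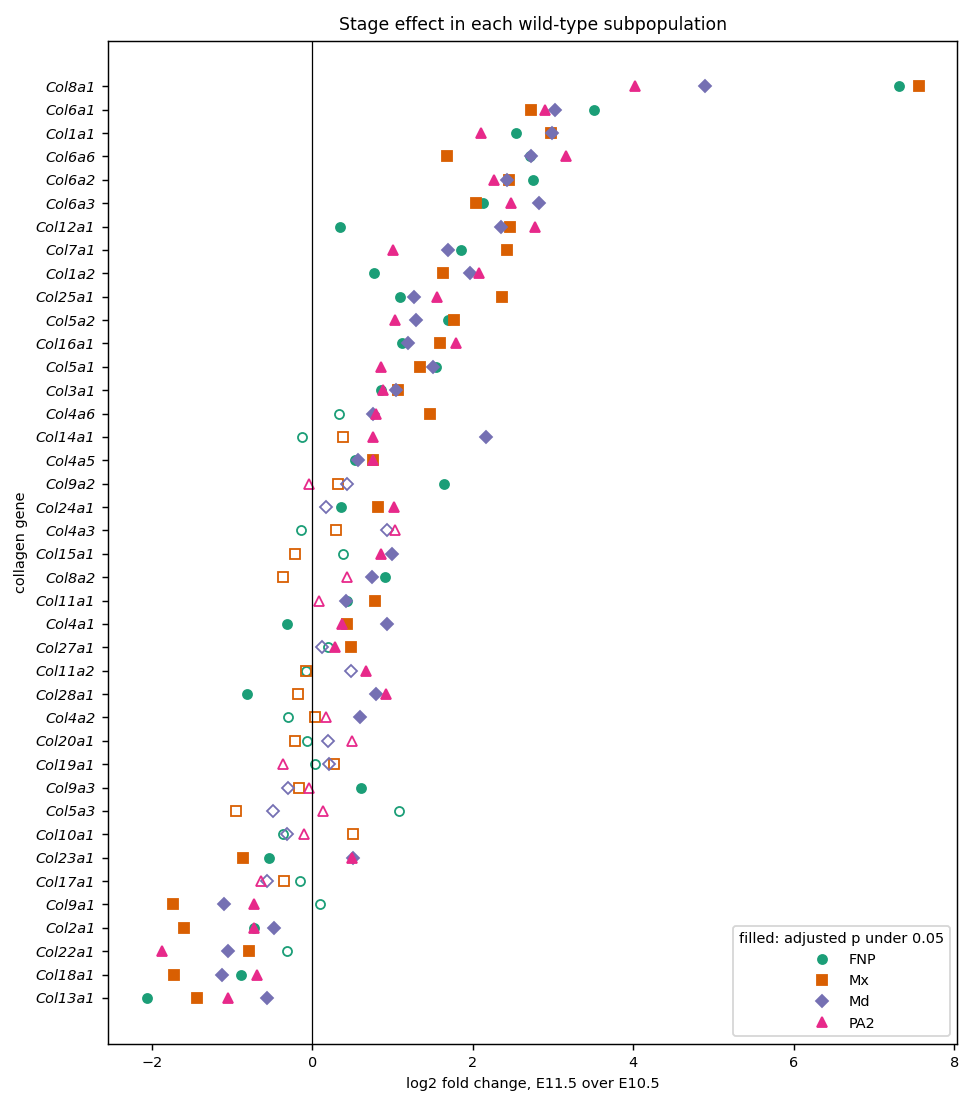
Log2 fold change from E10.5 to E11.5 of 40 tested members in FNP, Mx, Md and PA2, ordered by the change over all places and drawn without error bars, with filled symbols for an adjusted p under 0.05. Col6a5 is left out because FNP holds 0 counts, and Col8a1 stands apart at 4.02 to 7.56.

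The places themselves differed in their collagens at both stages. Of 41 members, 29 (70.7%) differed between the 4 wild-type places at E10.5, against 27% of all genes, and 31 (75.6%) at E11.5, against 29.4%. At E10.5 FNP was highest for 13 of the 29 and lowest for 11. At E11.5 PA2 was highest for 10 of the 31 and FNP lowest for 11. Highest and lowest places were not counted over all genes. Each place was also tested against the mean of the others. Over all genes this called 5670 for FNP at E10.5 and 1401 to 2166 for the other places. At E11.5 it called 5058 for FNP and 3635 for PA2, against 2330 for Mx and 1460 for Md. Markers of neurons and glia summed to 214 CPM in wild-type Mx at E10.5, against 17.7 to 20.1 CPM in the other places, and to 69.6 CPM in Mx at E11.5. Erythroid markers summed to 370 CPM in Mx and 37.3 CPM in FNP at E10.5. Their part in the differences between places, and in the stage change of Mx, was not tested.

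At E10.5 Col12a1 was 5.10 times as high in FNP as in Mx (adjusted p = 1.99e-17 over the places). Col1a2 was ordered FNP, Mx, Md, PA2, with 756, 669.6 and 690.5 CPM in FNP, 352 and 328 CPM in Mx, 267, 251 and 252 CPM in Md and 218, 189.9 and 197 CPM in PA2. No 2 neighbours in that order overlapped (adjusted p = 5.12e-14). Col1a1, which shares its triple helix, stood at 58.2, 50.7, 52.3 and 64.0 CPM on average in the same order of places, and no difference between places was called (adjusted p = 0.351). The ratio of Col1a2 to Col1a1 per kilobase was therefore 6.55 ± 0.421 in FNP and 1.70 ± 0.128 in PA2 (SD, n = 3). By E11.5 it lay between 1.32 and 1.97 in the 4 places.

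Col9a1 ran the other way, with 18.5, 21.8 and 19.1 CPM in FNP, 34.7 and 38.0 CPM in Mx, 106, 96.2 and 112 CPM in Md and 126, 125 and 139 CPM in PA2 at E10.5 (adjusted p = 5.55e-16). Again no neighbours overlapped. Col5a1, which nucleates type I fibrils, was also lowest in FNP, at 29.6, 31.7 and 33.4 CPM, and highest in PA2, at 87.0, 85.6 and 87.5 CPM (adjusted p = 2e-11). Exons of Col5a1 overlap noncoding transcripts on the opposite strand over 2.5% of their length. Col4a1 was highest in FNP at E10.5 (adjusted p = 1.37e-13), and so was Col4a2, at 122, 99.3 and 102 CPM (adjusted p = 3.74e-06). Col14a1 was 4.42 times as high in FNP as in Mx (adjusted p = 4.57e-13). No difference of Col2a1 between places was called at E10.5 (adjusted p = 0.92), with group means from 303 to 321 CPM.

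At E11.5 Col2a1 did differ (adjusted p = 1.15e-08). It was lowest in Mx, at 107, 89.8 and 120.3 CPM, below every library of FNP (168, 195 and 191 CPM), Md (249.8, 182 and 221 CPM) and PA2 (188, 209 and 183 CPM), and these last 3 places overlapped. Mx was lowest for Col9a1 too, at 11.1, 7.33 and 14.4 CPM, and PA2 was 7.21 times as high (adjusted p = 2.23e-16). Col8a2 was lowest in Mx, at 3.14, 1.95 and 2.48 CPM, and at 13.04 to 19.97 CPM in the other libraries (adjusted p = 1e-12). Col8a1 was 11.6 times as high in FNP as in PA2 (adjusted p = 2.49e-14). Cartilage markers summed to 34.3 to 212 CPM over the 4 places at E11.5.

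Col14a1 at E11.5 was also lowest in Mx, by 4.78 times against PA2 (adjusted p = 3.47e-13). Col23a1 was lowest in FNP and highest in PA2 (adjusted p = 7.27e-17). Col9a3, another type IX chain, was highest in FNP, at 11.2, 9.29 and 11.54 CPM, and lowest in PA2, at 3.57, 3.67 and 3.02 CPM (adjusted p = 4.6e-11), the opposite end from Col9a1. Exons of Col9a3 overlap those of Tcfl5 on the other strand over 6.07% of their length, and unstranded reads there cannot be assigned. No difference between places at E11.5 was called for Col3a1 (adjusted p = 0.44) or Col4a2 (adjusted p = 0.409).

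PA2 and Md, the arches with and without Hoxa2, differed in 8 members at E10.5, 5 higher and 3 lower in PA2 (19.5%), against 2.72% and 1.95% of all genes. A fit on these 6 libraries alone called 13 of 41 members and 1839 of all 20560 genes. Of the chains named by rule, Col24a1, a minor fibrillar collagen of bone, stood at 17.6, 17.3 and 16.6 CPM in Md and 10.4, 7.80 and 9.33 CPM in PA2 (-0.91 ± 0.12, adjusted p = 3.63e-07). Col9a3 stood at 6.58, 7.51 and 6.58 CPM and 4.07, 3.36 and 3.14 CPM (-0.97 ± 0.17, adjusted p = 0.000102), and Col25a1 at 30.3, 30.9 and 34.4 CPM and 21.8, 18.7 and 17.9 CPM (-0.71 ± 0.17, adjusted p = 0.00442). All 3 were lower in PA2 without overlap. Col5a1 was higher in PA2 (0.72 ± 0.13, adjusted p = 8.23e-05). So were Col6a3 (0.52 ± 0.14, adjusted p = 0.0157) and Col23a1 (0.33 ± 0.10, adjusted p = 0.0445), but Col6a3 lost its call without PA2 replicate 1 (0.43) and Col23a1 without the same library (0.27), among others.

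At E11.5, 13 members differed between the arches, 7 higher and 6 lower in PA2 (31.7%), against 4.1% and 3.78% of all genes. Col12a1 stood at 216, 181 and 189.5 CPM in Md and 275, 320.2 and 304 CPM in PA2 (0.62 ± 0.13, adjusted p = 0.00103), and Col9a1 at 46.3, 46.1 and 54.8 CPM and 77.2, 85.4 and 74.1 CPM (0.69 ± 0.17, adjusted p = 0.00568). Both were higher in PA2 in every library. Col9a3 remained lower in PA2 (-0.71 ± 0.17, adjusted p = 0.00245), although without Md replicate 1 its adjusted p was 0.051. Col7a1, the anchoring fibril chain that ties the skin's basement membrane to the dermis, was lower (-0.83 ± 0.21, adjusted p = 0.00609), and not called without PA2 replicate 2 (-0.66). Col8a1 was lower in PA2 by -0.86 ± 0.27, adjusted p = 0.0437, a call that 5 of the 6 single-library omissions removed, with values down to -0.70 without Md replicate 3.

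In Ezh2cKO many collagen genes rose at E10.5, among them chains of types I, V, VI, VII and VIII. Col4a6 alone was called lower in the fit over all libraries. Over the 4 places, 21 of 41 members (51.2%) were higher and 1 (2.44%) lower, against 16.1% and 14.7% of all genes. The median log2 fold change was 0.34 over the members and -0.02 over all genes. The wild-type libraries are the same ones used in both stage comparisons. By class the members called higher were 5 of 11 fibrillar, 5 of 9 FACIT, 3 of 5 beaded filament, 2 of 3 short-chain network, 2 of 4 transmembrane and 1 of 5 basement membrane genes, with Col7a1, Col15a1 and Col28a1. Col28a1 (0.34) and Col4a6 (-0.39 ± 0.15, adjusted p = 0.044) each lost the call in most fits that left out 1 library.

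Other measures moved with the knockout. Mitochondrial genes took 26.97% of counts in Ezh2cKO against 22.2% in wild type in Mx, 27.9 against 21.7% in Md and 28.8 against 22.9% in PA2, but 30.5 against 30.2% in FNP, where the fewest members rose. Bone markers summed to 46.1, 71.9, 51.0 and 42.1 CPM in FNP, Mx, Md and PA2 of Ezh2cKO and to 33.4, 46.5, 29.7 and 21.8 CPM in wild type, and 3 of 5 were higher. Cartilage markers summed to 191, 113, 94.0 and 102 CPM against 210, 145, 127 and 154 CPM, although 3 of 7 were called higher and 2 lower. The part of these in the collagen differences was not tested.

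Col7a1 (chr9:108953586-108984875) was the only member called higher in each of the 4 places, at 6.13, 6.25 and 6.57 CPM in Ezh2cKO against 2.89, 3.65 and 5.17 CPM in wild-type FNP, and 7.17, 5.96 and 4.31 against 2.59, 2.85 and 2.07 CPM in Md. In PA2 it stood at 4.66, 5.63 and 4.79 against 2.171, 2.69 and 2.01 CPM and in Mx at 4.95, 6.43 and 4.22 against 3.03 and 2.99 CPM. No place showed overlap. Over the places the log2 fold change was 0.95 ± 0.12, adjusted p = 1.78e-08. Single places were less secure, since the call was lost without FNP replicate 1 of wild type (0.52) and without Mx replicate 2 of Ezh2cKO (0.60), among others. Col7a1 is made by fibroblasts and keratinocytes. Epithelial markers summed to 9.69 to 15.4 CPM in the Ezh2cKO groups and 3.72 to 12.04 CPM in wild type, and 5 of 9 were higher and 1 lower, with Krt14 at 0 in every library of both. Their part in the rise of Col7a1 was not tested.

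Col8a1 rose by 1.77 ± 0.32, adjusted p = 2.88e-05 over the places, from levels close to the floor. In FNP it stood at 2.25, 1.95 and 1.81 CPM in Ezh2cKO and 0.237, 0.205 and 0.358 CPM in wild type (2.88 ± 0.45, adjusted p = 1.12e-05). In Mx the values were 0.989, 0.918 and 0.0754 and 0.0266 and 0.189 CPM, which overlap (2.62 ± 0.72, adjusted p = 0.0133), and without replicate 1 of wild-type Mx the call was lost (1.75). Md had 0.406, 0.387 and 0.205 and 0.467, 0.0413 and 0.159 CPM (0.59 ± 0.69, adjusted p = 0.746), and PA2 0.303, 0.571 and 0.508 and 0.136, 0.168 and 0.393 CPM (1.01 ± 0.63, adjusted p = 0.384). Even the FNP level was a small part of the 38.1 to 49.2 CPM of wild-type FNP at E11.5.

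Col6a1 and Col6a2 of type VI and both chains of type I also rose in the knockout. Col6a3 had 0.17 ± 0.07, adjusted p = 0.0574, and was called higher by DESeq2 (0.19, adjusted p = 0.0328) and under each of the other scalings and fits run over all libraries or the compared groups, with adjusted p from 0.0135 to 0.0399. Col6a2 had a log2 fold change of 0.61 ± 0.09, adjusted p = 8.89e-07, Col6a1 of 0.56 ± 0.09, adjusted p = 1.64e-06 and Col5a1 of 0.53 ± 0.07, adjusted p = 1.41e-08. Col1a1 stood at 54.9 to 94.8 CPM in the 12 Ezh2cKO libraries and 42.6 to 64.9 CPM in wild type (0.44 ± 0.08, adjusted p = 3.94e-05), and Col1a2 had 0.44 ± 0.07, adjusted p = 4.16e-06. Type I ranges overlapped across places, and in FNP Col1a1 stood at 54.9, 65.1 and 61.0 CPM against 58.3, 58.5 and 57.8 CPM (0.05 ± 0.16, adjusted p = 0.92). Col27a1, a fibrillar collagen of cartilage, rose by 0.51 ± 0.06, adjusted p = 6.33e-09.

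For 7 other chains no change over the mean of the places was called. Col2a1 had a log2 fold change of -0.06 ± 0.06, adjusted p = 0.479, Col3a1 of 0.12 ± 0.07, adjusted p = 0.18 and Col9a1 of -0.06 ± 0.09, adjusted p = 0.691. Col4a1 had 0.04 ± 0.05, adjusted p = 0.628, Col4a2 0.10 ± 0.07, adjusted p = 0.309 and Col11a1 -0.05 ± 0.06, adjusted p = 0.581. Col10a1 had 0.06 ± 0.13, adjusted p = 0.793. The fit on the wild-type and Ezh2cKO libraries of E10.5 alone did call Col3a1 (0.16, adjusted p = 0.0127) and Col4a2 (0.14, adjusted p = 0.0402) higher. That fit also called Col5a2 higher (0.194, adjusted p = 0.00379) and Col18a1 lower (-0.205, adjusted p = 0.00117), which the fit over all libraries did not. The mean of Col4a1 covers values of -0.26 in FNP (adjusted p = 0.098) and 0.24 in PA2 (adjusted p = 0.121).

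**Figure D5:**
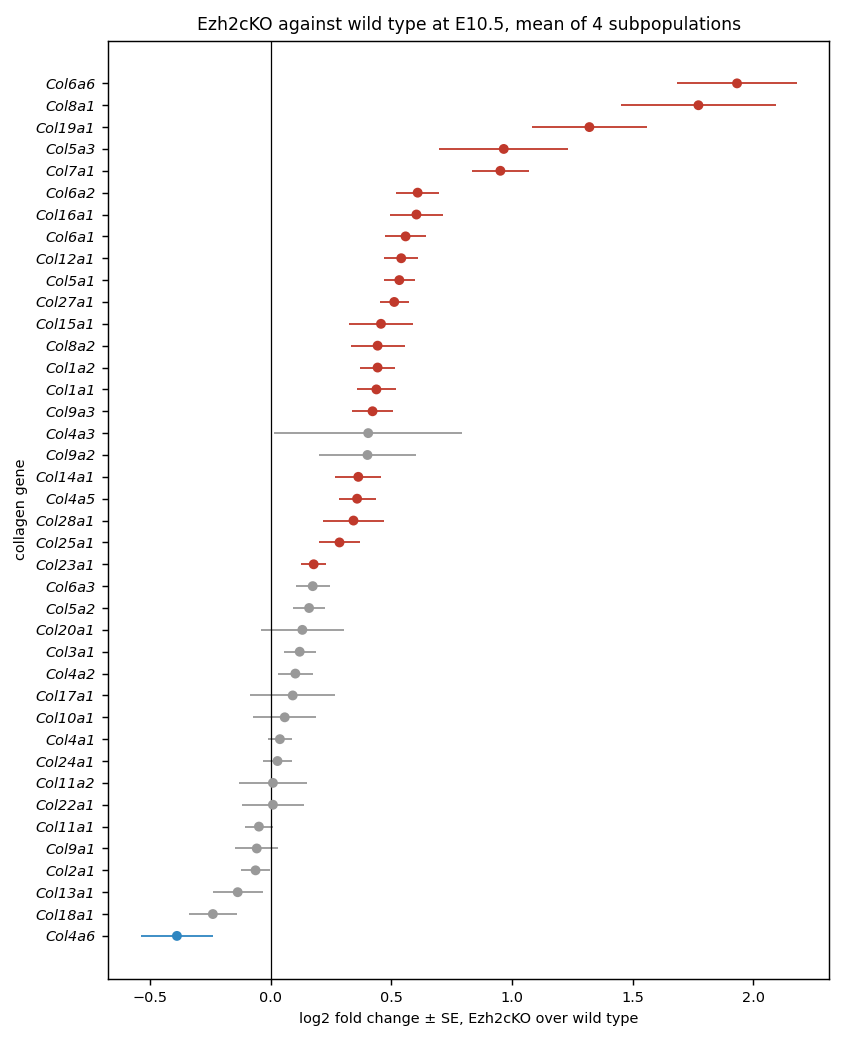
Log2 fold change of Ezh2cKO against wild type at E10.5 over the mean of the 4 places for 40 tested members, with standard errors as bars, red for members called higher, blue for lower and grey for the rest. Col6a5 is left out because FNP holds 0 counts, and Col4a6 (-0.39) is the only blue point.

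In single places, 5 members rose and 1 fell in FNP (backgrounds 4.97% and 1.83%), 12 rose in Mx (6.85% and 3.41%), 15 in Md (6.69% and 2.18%) and 8 in PA2 (6.64% and 2.53%), and none fell in these 3. Col12a1 was the only member whose response was called different between places in the fit over all libraries (adjusted p = 6.27e-05), 2.44% of members against 1.63% of all genes. The fit on the wild-type and Ezh2cKO libraries of E10.5 alone also called Col1a2, Col4a1, Col14a1 and Col15a1, beside 543 of all 20560 genes. Col12a1 stood at 100, 96.9 and 133 CPM in Ezh2cKO and 134, 130.4 and 144 CPM in wild-type FNP (-0.31 ± 0.13, adjusted p = 0.196). In Mx it stood at 53.3, 57.3 and 43.8 CPM in Ezh2cKO and 27.8 and 25.5 CPM in wild type (0.95 ± 0.16, adjusted p = 3.66e-05), and in PA2 at 81.1, 95.3 and 56.8 and 48.99, 41.6 and 40.3 CPM (0.83 ± 0.14, adjusted p = 2.63e-05). Wild-type FNP, where Ezh2cKO was not higher, was the place of highest Col12a1 at E10.5.

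HoxA2OE in Md changed collagens in both directions. Of 41 members, 10 (24.4%) were higher and 12 (29.3%) lower, against 27.1% and 27.8% of all genes, so the share called was near the background. Without replicate 1, 20 were called, 11 higher and 9 lower, and 16 of the 22 were among them. A fit on the 6 compared libraries alone called 12 of the members, 7 higher and 5 lower, and 6355 of all 20560 genes, again near the background.

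Col7a1 fell from 2.59, 2.85 and 2.07 CPM in wild-type Md to 0.0826, 0.622 and 0.394 CPM in HoxA2OE (-2.67 ± 0.31, adjusted p = 2.94e-09), the largest change among the members that had counts in every library. Col27a1 fell from 61.8, 62.8 and 56.5 CPM to 25.4, 35.0 and 33.7 CPM (-0.94 ± 0.12, adjusted p = 1.47e-08) and Col10a1 from 2.97, 3.51 and 2.55 CPM to 1.65, 1.19 and 0.998 CPM (-1.26 ± 0.27, adjusted p = 0.000138). Col24a1, which was lower in PA2 than in Md in wild type at E10.5, stood at 10.1, 9.34 and 10.0 CPM in HoxA2OE (-0.81 ± 0.12, adjusted p = 2.44e-07). The groups of these 4 genes did not overlap. Without replicate 1 the values were -2.33 for Col7a1, -0.83 for Col27a1, -1.49 for Col10a1 and -0.84 for Col24a1. Col14a1 and Col28a1, which were higher in PA2 than in Md at E10.5, were not called higher in HoxA2OE.

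Fibrillar genes made up 6 of the 10 that rose, but the fibrillar genes Col27a1 and Col24a1 were among those that fell. Whether fibrillar genes rose more often than the other members was not tested. Col1a1 stood at 55.2, 54.9 and 46.8 CPM in wild-type Md and 104, 116 and 123 CPM in HoxA2OE (1.12 ± 0.16, adjusted p = 1.43e-07). Col5a2 stood at 49.7, 54.8 and 46.6 CPM and 138, 88.4 and 88.1 CPM (1.05 ± 0.13, adjusted p = 5.93e-09), and Col3a1 at 484, 469 and 455 CPM and 1099, 644 and 690.4 CPM (0.79 ± 0.13, adjusted p = 2.54e-06). Replicate 1 was highest for Col5a2 and Col3a1 but lowest for Col1a1, and all HoxA2OE libraries lay above wild type. Without it the values were 1.17 for Col1a1, 0.79 for Col5a2 and 0.49 for Col3a1. Col1a2 rose by 0.47 ± 0.14, adjusted p = 0.00413 with replicate 1 and was not called without it (0.30, adjusted p = 0.0934).

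Col9a1 stood at 106, 96.2 and 112 CPM in wild-type Md and 293, 147 and 147 CPM in HoxA2OE (0.90 ± 0.17, adjusted p = 2.49e-05), and Col11a1 at 86.6, 87.8 and 98.9 CPM and 183, 118 and 111 CPM (0.59 ± 0.11, adjusted p = 1.72e-05). Both were highest in replicate 1, and without it the values were 0.47 and 0.32. Col4a1 rose, with 110.2, 127 and 138 CPM in HoxA2OE (0.82 ± 0.10, adjusted p = 5.11e-09, and 0.89 without replicate 1). Its head-to-head partner Col4a2 stood at 47.8, 72.3 and 74.4 CPM against 61.5, 56.6 and 50.6 CPM (0.21 ± 0.14, adjusted p = 0.213). Without replicate 1 Col4a2 was called higher too (0.36, adjusted p = 0.0243). The ratio of Col4a2 to Col4a1 per kilobase was 0.530 ± 0.0738 in HoxA2OE and 0.819 ± 0.0506 in wild-type Md. Col2a1 stood at 216, 344 and 360.4 CPM and 327, 317 and 264 CPM (0.02 ± 0.12, adjusted p = 0.911), and Col8a1 at 0 to 0.289 CPM (-0.38 ± 0.74, adjusted p = 0.69). Endothelial markers were higher for 4 of 10 and erythroid markers lower for 6 of 6 in HoxA2OE, and their part in the type IV difference was not tested.

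In PA2 at E11.5, the libraries labelled as a temporal knockout of Hoxa2 held less Hoxa2 RNA than Control (175.6 to 194.6 against 268 to 269 CPM). Their Hoxa2 RNA was at the level of wild type. Against Control, edgeR's test over all libraries called no collagen gene. A fit on the 6 compared libraries alone called 3, beside 272 of all 20560 genes. Of 41 members, 0 were called in Hoxa2TempMut against Control, 4 had an unadjusted p under 0.05, and the smallest adjusted p was 0.411, where 0.258% of all genes were higher and 0.365% lower. DESeq2 also called 0, with 4 under 0.05. Col6a6, a minor type VI chain, had the largest difference, at 1.02, 1.59 and 2.06 CPM against 1.79, 3.35 and 3.35 CPM (-0.86 ± 0.32, adjusted p = 0.411). Col2a1 stood at 324, 331 and 332 CPM in Hoxa2TempMut and 295, 262 and 268 CPM in Control (0.26 ± 0.12, adjusted p = 0.697), and every library labelled Hoxa2TempMut exceeded every Control library. Col8a1 stood at 9.45, 8.35 and 8.13 CPM and 5.36, 6.91 and 8.27 CPM (0.34 ± 0.26, adjusted p = 1), with overlap. The fit on these 6 libraries alone called Col2a1 (0.25, adjusted p = 0.0304), Col25a1 (0.40, adjusted p = 0.0275) and Col9a1 (0.27, adjusted p = 0.0428) higher in Hoxa2TempMut. Col25a1 stood at 96.2, 102 and 97.1 CPM against 63.6, 75.5 and 82.8 CPM there, and Col9a1 at 97.3, 97.0 and 106 CPM against 86.6, 79.1 and 81.0 CPM, so neither overlapped. These 3 calls depend on the libraries whose spread enters the test.

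Control and wild-type PA2 differed in 6 members (7.32% higher and 7.32% lower), against 10.1% and 12% of all genes. The fit on these 6 libraries alone called 13 of 41 members and 6364 of all 20560 genes, so the shares were alike. Col2a1 stood at 295, 262 and 268 CPM in Control and 188, 209 and 183 CPM in wild type (0.51 ± 0.12, adjusted p = 0.00132), and Col6a3 at 110.2, 138 and 156 CPM and 213, 224 and 209.9 CPM (-0.68 ± 0.13, adjusted p = 0.000188). Neither overlapped. Col14a1 was lower in Control (-0.84 ± 0.16, adjusted p = 0.00014). Col1a1 (-0.46 ± 0.15, adjusted p = 0.0247) lost its call without Control replicate 1 (-0.32) and Col8a1 (0.87 ± 0.27, adjusted p = 0.0179) without Control replicate 3 (0.71), among others. The log2 fold change of Col2a1 was thus 0.51 between these groups and 0.26 between Hoxa2TempMut and Control. Both values use the same Control libraries, and whether they differ was not tested.

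Chains that assemble in 1 molecule were compared across the 16 groups as a description of group means, which share libraries, depth and stage. Pearson's r of the log2 means was 0.97 for Col6a2 with Col6a1, 0.88 for Col1a2 with Col1a1, 0.69 for Col4a2 with Col4a1 and 0.68 for Col5a2 with Col5a1. It was 0.85 for Col6a3 with Col6a1, 0.26 for Col8a1 with Col8a2, 0.63 for Col9a2 with Col9a1 and -0.33 for Col9a3 with Col9a1. Head-to-head genes were not alike in this, since Col4a6 with Col4a5 gave 0.49 and group means of their ratio ran from 0.0272 to 0.739, while those of Col4a2 to Col4a1 lay between 0.53 and 1.02.

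Genes that make, process and bind collagen were counted in lists. From E10.5 to E11.5, where 33.7% of all genes rose and 30.1% fell, 16 of 19 genes of folding and modification in the endoplasmic reticulum rose and none fell, among them the prolyl hydroxylase subunit P4ha3 (3.24 on the log2 scale), Creb3l1 (1.63), a transcription factor that drives secretion of collagen, and Leprel1 (1.29). Of 13 processing and crosslinking genes 11 rose and 2 fell, led by Tll2 (3.56) and the crosslinking enzyme Lox (2.58). All 8 fibril-binding genes rose, led by Kera (5.38) and Dcn (4.99). Collagen receptors rose for 5 of 7, with Ddr1 at 1.56. All 6 tested genes of collagen breakdown and its control rose, namely the proteases Mmp2, Mmp9 (2.34) and Mmp14 and the protease inhibitors Timp1, Timp2 and Timp3. The medians of these lists were 0.42, 0.56, 2.56, 0.80 and 0.72, beside 0.03 over all genes.

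Between E8.5 and E10.5 the same lists were mixed. Folding and modification genes rose for 3 and fell for 8 of 19, processing genes rose for 7 and fell for 2 of 13, and fibril-binding genes rose for 4 and fell for 2 of 8. Over all genes tested 32.1% rose and 36.3% fell between these stages. In Ezh2cKO, where 16.1% of all genes rose and 14.7% fell, 8 of 19 folding genes rose, with P4ha3 at 2.31 and Creb3l1 at 1.47, and P4ha1 fell (-0.21). Processing genes rose for 8 of 13, with Loxl1 at 1.20 and Lox at 0.97, and Tll1 fell (-0.66). Among 9 cartilage and bone regulators Runx3 (3.45) and Runx2 (0.71) rose, and Sox5 (-0.42), Sox9 (-0.36), Trps1 (-0.25) and Sox6 (-0.20) fell.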

How the data were processed

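Sorted cranial neural crest cells were profiled in 47 libraries. Per the labels' protocols, tissue was dissected, trypsinised and sorted, and total RNA went into unstranded ScriptSeq v2 libraries read as single ends of 50 bases, 3 samples to a pool. The authors deposited raw read counts per gene, whole numbers in 1 table with symbols and GRCm38 coordinates. The submitters' processing notes name bcl2fastq 2.17 and GRCm38 (mm10), and which aligner and counter were used is not given in the sources used here. Whether counting used strand is not stated, so reads of overlapping genes are uncertain. Of the column names, 22 appear in repeat with identical values and were used once.

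Counts of 20560 genes (filterByExpr, minimum count 10, minimum total 15) entered 1 model with a mean per group in edgeR 4.0.16 (R 4.3.3), with TMM scaling and 31 residual degrees of freedom. Tests were edgeR's quasi-likelihood F tests, Benjamini-Hochberg adjusted within each comparison over all genes, called at an adjusted p under 0.05. Values given as ± after a fold change are standard errors on the log2 scale. A count of 0 over a group allows up to 3 counts, for counting error only. Recovery was checked on simulated counts.

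The members, gene lists and tests were chosen with earlier results of these data known. Library values are given for Col8a1, Col2a1, Col1a1, Col1a2, Col3a1, Col4a1, Col4a2, Col9a1, Col11a1 and Col10a1 and, per comparison, for up to 6 called members of largest fold (of largest F in joint tests) where 1 group held 5 CPM or more. Other members are named to complete small counts or chain pairs and were chosen after their values were seen. Alternatives were other scalings, DESeq2 1.42.0, no filter, the compared groups alone, a replicate block and leaving out each library. Shares and ratios per kilobase use the exon lengths of the deposited table. Promoter windows are from RefSeq on GRCm38.p6, matched by symbol.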

Additional observations from a re-analysis of the deposited data

Results flagged for a closer look

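Listed here are the genes named by rule whose effects differed between places by a test of the difference itself. Other members were also called in that test for the stage change and are not listed. Log2 fold changes are for FNP, Mx, Md and PA2 in that order. From E10.5 to E11.5, Col12a1 changed by 0.35, 2.47, 2.36 and 2.78 (adjusted p = 8.66e-13, edgeR's quasi-likelihood joint test throughout). Col23a1 changed by -0.54, -0.86, 0.50 and 0.49 (adjusted p = 9.13e-11). Col14a1 had -0.13, 0.38, 2.16 and 0.75 (adjusted p = 2.06e-08), and Col4a1 -0.31, 0.43, 0.93 and 0.37 (adjusted p = 5.47e-08). Col4a2, its head-to-head neighbour, had -0.30, 0.04, 0.60 and 0.17 (adjusted p = 0.00711).

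Col1a2 had 0.77, 1.62, 1.97 and 2.07 (adjusted p = 5.3e-06) and Col1a1 2.53, 2.97, 2.98 and 2.11 (adjusted p = 0.00801), so the chains of type I were ordered differently. Col9a1 had 0.09, -1.74, -1.09 and -0.72 (adjusted p = 1.05e-05). Col2a1 had -0.72, -1.60, -0.48 and -0.73 (adjusted p = 2.65e-05) and Col11a1 0.43, 0.78, 0.42 and 0.09 (adjusted p = 0.0172). The Col11a1 difference was not called without Mx replicate 2 at E10.5 (adjusted p = 0.108). Col8a1 had 7.31, 7.56, 4.89 and 4.02 (adjusted p = 0.00374). In Ezh2cKO against wild type, Col12a1 had -0.31, 0.95, 0.69 and 0.83 (adjusted p = 6.27e-05).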

How the results depend on the processing

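Counts of called collagen genes stayed within 1.5 times under other scalings, DESeq2, no filter and the compared groups alone, with the exceptions given here. The fit on the compared groups alone gave 13 in place of 8 for PA2 against Md at E10.5, 5 in place of 1 for the Ezh2cKO effect between places, 12 in place of 22 for HoxA2OE, 3 in place of 0 for Hoxa2TempMut and 13 in place of 6 for Control against wild type. Over all 20560 genes it called, in that order, 1839, 543, 6355, 272 and 6364, in place of 960, 335, 11277, 128 and 4537. The Ezh2cKO effect between places also had 3 without a filter and 6 by DESeq2. Upper quartile scaling moved the median of all genes in HoxA2OE to -0.16 and gave 8 higher and 14 lower in place of 10 and 12.

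Leaving out 1 library gave 31 to 33 members for E10.5 against E8.5, 29 to 32 for E11.5 against E10.5, 19 to 24 for the stage effect between places, 26 to 30 and 28 to 32 between places at E10.5 and E11.5, and 6 to 8 for PA2 against Md at E10.5. It gave 8 to 11 for PA2 against Md at E11.5 in place of 13, with 8 without Md replicate 3. Ezh2cKO had 20 to 24, its effect between places 1 to 3 (3 without Md Ezh2cKO replicate 3, 2 without PA2 replicate 2 of wild type or Mx Ezh2cKO replicate 3), HoxA2OE 17 to 23, Hoxa2TempMut 0 to 0 and Control 4 to 6. Of 3786 values of single genes under all alternatives, 3657 kept the call and, where they have a sign, the direction, 129 lost the call and 0 changed sign. Statistics of the joint tests are among these values, have no sign and so could not change it. These values cover only genes named by rule, in comparisons where the fit over all libraries called them. Calls gained under an alternative are therefore not among them.

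With the replicate number as a block, PA2 against Md at E10.5 had 16, the Ezh2cKO effect between places 8, HoxA2OE 10, Hoxa2TempMut 5 and Control against wild type 12. Over all 20560 genes these fits called 2521, 625, 4412, 572 and 6069 in that order. Same-numbered samples had correlations of deviations from -0.10 to 0.30 and in no pair of groups were all over 0.1. The labels do not say that they belong together, and these correlations do not settle it. With 3 pairs, every sample correlated best with its own number between Md and PA2 at E10.5 and between the FNP stages. In the fit on the compared groups alone, the block raised the calls over all genes for PA2 against Md at E10.5 from 1839 to 2521.

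Depth limited the members near the floor. Col8a1 had 1 to 11 counts in each wild-type E10.5 library, and Col6a5 at most 21 counts in any library.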

Other observations

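Some minor chains had changes of size at low levels that the comparisons above pass over. Col6a6, a chain close in sequence to Col6a3, stood at 2.05 and 1.45 CPM in wild-type Mx at E10.5 and at 0.0791 to 0.588 CPM in the other wild-type libraries of that stage. In Ezh2cKO it stood at 4.78, 5.33 and 3.77 CPM in Mx and 0.534, 0.578 and 0.686 CPM in FNP, and over the places it rose by 1.93 ± 0.25 on the log2 scale (adjusted p = 4.1e-08, edgeR's quasi-likelihood test). Mx was again highest at E11.5, at 6.11, 5.501 and 5.29 CPM. Col19a1, a FACIT collagen known from muscle and neurons, rose in Ezh2cKO by 1.32 ± 0.24, adjusted p = 2.85e-05, and Col5a3, the minor type V chain, by 0.97 ± 0.27, adjusted p = 0.00454. Both stayed under 2 CPM in every library. These members were chosen after their values were seen.

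Col28a1, a relative of type VI found around peripheral nerves, was higher in PA2 than in Md at E10.5 (1.43 ± 0.28, adjusted p = 0.000353) and at E11.5 (1.56 ± 0.22, adjusted p = 1.07e-06). It stood at 2.08, 2.85 and 3.40 CPM in PA2 and 0.820, 0.959 and 1.03 CPM in Md at E11.5. HoxA2OE Md held 0.496, 0.368 and 0.473 CPM against 0.509, 0.578 and 0.530 CPM in wild-type Md (-0.29 ± 0.31, adjusted p = 0.456).  Col14a1 likewise was higher in PA2 than in Md at E10.5 (1.61 ± 0.19, adjusted p = 3.52e-08), with 0.950, 1.13 and 1.21 CPM in HoxA2OE against 1.32, 1.77 and 1.49 CPM in wild-type Md (-0.46 ± 0.21, adjusted p = 0.0623).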
